A study of Mus musculus with 4 samples.

Results

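Nucleolar ribosome assembly factors were examined in B16F10 cells, a pigmented mouse melanoma line, as 45 genes given by symbol. Each gene was read from probe sets annotated to that symbol alone, and where a gene had several, the brightest on average stood for it. This gave values for 41 of the 45 genes, out of 17097 genes tested. Utp14a, Gnl3 and Naf1 had no probe set annotated to them here, and the listed probe set of Tsr1 was shared with Srr, so these 4 genes have no value. Controls (control 1 and control 2, 1 array each) received MilliQ water, that is 0 µM plumbagin, and treated cells (plumbagin 1 and plumbagin 2) received 2 µM plumbagin, both for 24 h. Plumbagin is a naphthoquinone made by Plumbago plants. All 4 samples were the same line with no other agent or genotype named in the labels. The labels do not say whether samples of a group came from separate cultures, so p-values measure the spread between these samples, which may be technical. Each p-value, SE and interval combines the spread of the gene's own arrays with a spread shared by all genes tested (limma).

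Ribosomes are built in the nucleolus, where a long precursor RNA is cut, chemically modified and folded with ribosomal proteins. Box C/D particles methylate riboses of the precursor and box H/ACA particles turn uridines into pseudouridines, each guided by a small nucleolar RNA. Small-subunit factors assemble around the U3 particle and release the pre-40S particle, while large-subunit factors accompany the pre-60S particle until export. Growing tumour cells run this pathway at a high rate, and many of its genes are known targets of MYC. On these arrays a value is a log2 brightness of 1 probe set, so differences are given within a gene and levels are not compared between genes.

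The upper quartile of the arrays was 6.26 on plumbagin 1 and 6.34 to 6.36 on the others, and the hybridization spike-in controls had a mean log2 value of 9.58 on plumbagin 1 against 8.46 to 8.77 on the others. The log2 difference between the 3-prime and 5-prime probe sets of actin, a measure of RNA integrity, was 0.47 and 0.50 in the controls and 0.56 and 0.52 with plumbagin. All 8 melanocytic markers were above the background level, the 95th percentile of 41 odorant receptor genes. Of 6 leukocyte, 6 fibroblast and 6 keratinocyte markers, 1, 0 and 0 were above it, the 1 being Cd14. The summed log2 level of the melanocytic markers was 91.3 to 91.9 in the controls and 90.5 to 92.2 with plumbagin. Those of the other lists were 23.9 to 24.1 and 23.5 to 23.8 for leukocytes, 22.1 to 22.5 and 22.1 to 22.5 for fibroblasts, and 21.9 to 22.2 and 21.955 to 23.0 for keratinocytes. Because RNA was taken from whole cultures, fewer cells that express a gene and less RNA per cell cannot be told apart.

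Most assembly factors had lower means with plumbagin, by small amounts, and no gene passed the test. Of the 41 measured genes, 34 had a lower mean and 7 a higher mean, and the median difference was -0.21 on the log2 scale, a 1.16-fold lower level. Over all 17097 genes the median was -0.012, with 55.2% of genes lower. Over the 8637 genes above background it was -0.051, with 65.1% lower. In 21 of the 41 genes the higher plumbagin array was still lower than the lower control, that is 51.2%, against 15.2% of all genes. The reverse order was seen in 0 of 41, against 10.2% of all genes and 489 of the 8637 genes above background. None of the 41 passed an adjusted p of 0.05 (limma, Benjamini-Hochberg over all genes), and among all genes the share that passed was 0%, with 0 called. At an unadjusted limma p under 0.05, 4 members were lower and 0 higher, against 0.731% and 0.257% of all genes. The 41 differences ranged from -0.47 for Wdr74 to 0.17 for Dkc1.

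The size of the shift depended on plumbagin 1 and on the scaling of the arrays. Plumbagin 1 was also the array with the lowest upper quartile and the highest spike-in level, and the part of these in the result was not tested. Without plumbagin 1 the median of the 41 genes was -0.10, and 24 genes had plumbagin 2 below both controls, against 36.2% of all genes. After cyclic loess normalization between arrays, 12 of the 41 genes kept both plumbagin arrays below both controls, against 14.7% of all genes, and the median was -0.15. Repeated quantile normalization left 16 genes so ordered, against 16% of all genes, and centring on array medians 20, against 19.6%. Leaving out control 1, control 2 or plumbagin 2 gave 31, 28 and 29 genes with plumbagin below control on every array kept, against 28.2%, 39.9% and 34.9% of all genes.

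**Figure D1:**
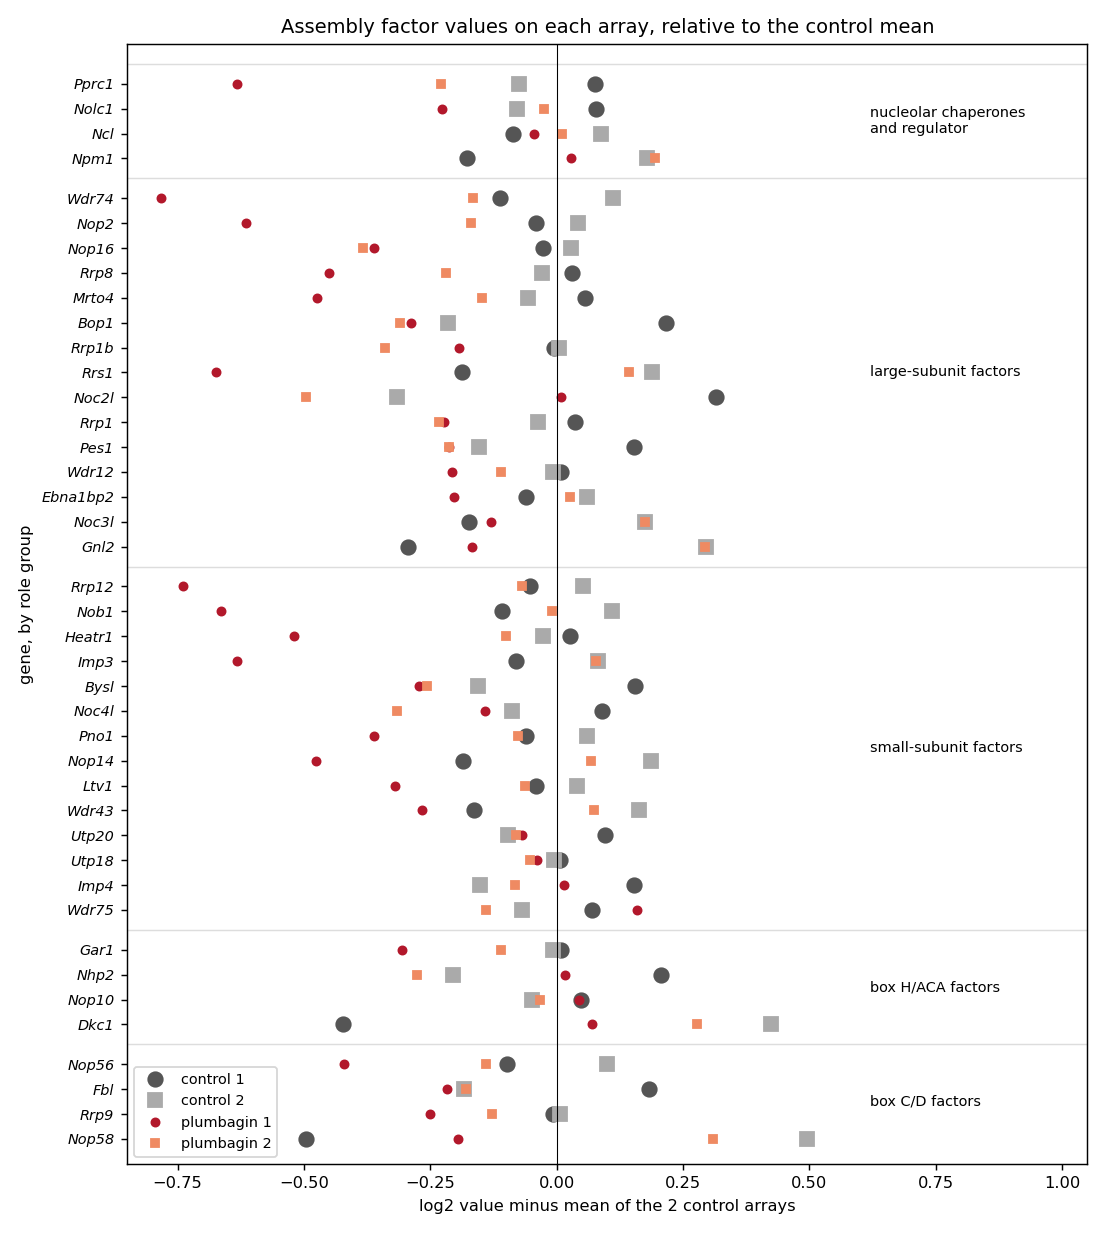
The horizontal axis is the log2 value of each gene minus the mean of its 2 control arrays, and the vertical axis lists the 41 genes by role group. Circles are arrays numbered 1 and squares arrays numbered 2, with controls in grey and plumbagin in red and orange. Plumbagin 1 lies farthest to the left for many small- and large-subunit factors, while Nop58 and Dkc1 have control 1 and control 2 at opposite ends.

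With all 4 arrays kept, large-subunit factors had the lowest median of the 5 role groups, -0.27 over 15 measured genes, or 1.20-fold lower. Of all genes tested, 55.2% had a lower mean and 15.2% had both plumbagin arrays below both controls. For genes with a mean log2 value from 7 to 9 these shares were 68.9% and 20.3%. Among the 15 large-subunit factors, 13 had a lower mean and 10 had both plumbagin arrays below both controls. The 4 members of the whole set with an unadjusted p under 0.05 (limma, adjusted p = 1 for each) were all in this group: Nop16, Rrp8, Rrp1b and Rrp1. Within number 1 (plumbagin 1 minus control 1) the median was -0.33, and within number 2 it was -0.10. With plumbagin 1 left out, the median difference between plumbagin 2 and the mean of both controls was -0.17. The rank of this group did not hold in every such fit. Without control 1 its median was -0.23, against -0.29 for box C/D and -0.25 for small-subunit factors. Without plumbagin 2 it was -0.22, against -0.23 for box C/D and -0.30 for small-subunit factors.

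Nop16, a nucleolar protein of the pre-60S particle, read 7.09 and 7.15 in controls 1 and 2 and 6.76 and 6.74 in plumbagin 1 and 2. The controls lay within 0.056 of each other and both plumbagin arrays were below them. The difference was -0.37 ± 0.079 (log2, SE moderated by limma over all genes, n = 2 per group), with a 95% interval of -0.58 to -0.16. The other probe set of Nop16 was below background, and its difference was -0.17. Rrp8, a methyltransferase that modifies a base of the large ribosomal RNA, had 7.02 and 6.96 in controls 1 and 2 and 6.54 and 6.77 in plumbagin 1 and 2. Both plumbagin arrays were below both controls, plumbagin 1 by more, and the difference was -0.33 ± 0.11. Rrp1b, a nucleolar protein of the pre-60S particle related to Rrp1, had 7.28 and 7.28 in controls 1 and 2 and 7.09 and 6.94 in plumbagin 1 and 2, and here plumbagin 2 was the lowest array. Its difference was -0.27 ± 0.091, with an interval of -0.51 to -0.021. Rrp1 itself had 8.96 and 8.89 in the controls and 8.70 and 8.69 with plumbagin. The 2 plumbagin arrays were closer to each other than the 2 controls were, and the difference was -0.23 ± 0.08.

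Other genes of this group with low means under plumbagin were less steady between arrays. Wdr74, a WD-repeat protein of the pre-60S particle, read 7.51 and 7.73 in controls 1 and 2 and 6.84 and 7.45 in plumbagin 1 and 2. The difference of -0.47 ± 0.24 came mainly from plumbagin 1, with -0.67 in number 1 and -0.28 in number 2, and its interval of -1.11 to 0.16 reached above 0. Nop2, a methyltransferase that acts on cytosines of the large ribosomal RNA, had 8.06 and 8.15 in controls 1 and 2 and 7.49 and 7.94 in plumbagin 1 and 2, for a difference of -0.39 ± 0.17. Mrto4, a relative of the ribosomal stalk protein P0 that occupies its site on the pre-60S particle, had 8.60 and 8.49 in controls 1 and 2 and 8.07 and 8.40 in plumbagin 1 and 2. In both genes plumbagin 1 was the lowest array and plumbagin 2 lay between it and the controls; the difference for Mrto4 was -0.31 ± 0.14.

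Bop1, Pes1 and Wdr12 form the PeBoW complex, which is needed to process the large-subunit precursor RNA. In the deposited values all 3 had both plumbagin arrays below both controls, where the share over all genes was 15.2%. The groups of Bop1 and Pes1 overlapped after repeated quantile normalization and after cyclic loess. Those of Pes1 and Wdr12 overlapped with probe sets averaged. Bop1 read 8.12 and 7.69 in controls 1 and 2 and 7.62 and 7.59 in plumbagin 1 and 2. The plumbagin arrays were close together, but control 1 was 0.43 above control 2 on the log2 scale, more than the treatment difference of -0.30 ± 0.17. Pes1 showed the same order with 8.66 and 8.36 in the controls and 8.30 and 8.30 with plumbagin, a difference of -0.21 ± 0.13. Wdr12 had 8.15 and 8.13 in the controls and 7.93 and 8.03 with plumbagin, so its controls agreed closely, and the difference was -0.16 ± 0.084. The other probe set of Wdr12, which was below background, differed by -0.071, and that of Pes1 by -0.21. In both of these the groups overlapped.

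The remaining large-subunit factors overlapped between the groups. Rrs1, which takes part in adding the 5S RNA particle, read 9.32 and 9.70 in controls 1 and 2 and 8.84 and 9.65 in plumbagin 1 and 2; only plumbagin 1 lay below both controls, and its difference was -0.27 ± 0.32. Noc2l, a nucleolar protein that also binds p53, had 7.92 and 7.29 in the controls and 7.62 and 7.11 with plumbagin, a difference of -0.24 ± 0.28. Its values followed the replicate number more than the treatment. Gnl2, a nucleolar GTPase, and Noc3l, a pre-60S factor, had higher means by 0.062 ± 0.27 and 0.023 ± 0.17, and in both genes the 2 arrays numbered 2 were above the 2 numbered 1. Ebna1bp2, a partner of pre-60S particles, differed by -0.088 ± 0.12.

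Small-subunit factors were lower in 13 of 14 measured genes, against 55.2% of all genes, with a median of -0.21. Both plumbagin arrays were below both controls in 7 of the 14, against 15.2% of all genes. The median was -0.29 in number 1 and -0.095 in number 2. Without plumbagin 1 it was -0.072, so much of the difference in this group rested on that array. None passed the test, and the smallest unadjusted p was 0.107, for Bysl.

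Bysl, or bystin, a factor of the pre-40S particle, read 7.71 and 7.40 in controls 1 and 2 and 7.28 and 7.30 in plumbagin 1 and 2, a difference of -0.26 ± 0.13 with an interval of -0.62 to 0.087. The plumbagin arrays were nearly equal and lay below control 2, with control 1 higher. Noc4l, which binds Nop14 in the small-subunit processome, had 7.002 and 6.82 in controls 1 and 2 and 6.77 and 6.60 in plumbagin 1 and 2. Each plumbagin array was lower than the control of its number by nearly the same amount, -0.23 in number 1 and -0.23 in number 2, and the difference was -0.23 ± 0.11. Heatr1, the mammalian form of yeast Utp10, had 7.23 and 7.18 in controls 1 and 2 and 6.68 and 7.10 in plumbagin 1 and 2. Plumbagin 1 was far below the other 3 arrays, which were close together, and the difference was -0.31 ± 0.16.

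Rrp12, a protein of pre-ribosome maturation and export, had the lowest difference of the group, -0.40 ± 0.24, with 5.85 and 5.95 in controls 1 and 2 and 5.16 and 5.83 in plumbagin 1 and 2. In number 2 the difference was only -0.12. Pno1 and Nob1 act together at the last cut that frees the 18S ribosomal RNA, Nob1 being the nuclease. Pno1 had 8.53 and 8.65 in controls 1 and 2 and 8.23 and 8.51 in plumbagin 1 and 2, a difference of -0.22 ± 0.13. Nob1 had 7.54 and 7.76 in controls 1 and 2 and 6.98 and 7.64 in plumbagin 1 and 2, and its groups overlapped, with a difference of -0.34 ± 0.25. Ltv1, a late pre-40S factor, read 8.07 and 8.15 in controls 1 and 2 and 7.79 and 8.04 in plumbagin 1 and 2, a difference of -0.19 ± 0.12. In Pno1 and Ltv1, as in Rrp12, plumbagin 2 was just below the lower control and plumbagin 1 well below it.

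Utp18, a processome protein, was apart between the groups by very little, with 8.49 and 8.48 in the controls and 8.45 and 8.44 with plumbagin, a difference of -0.046 ± 0.077. Its sign turned when probe sets were averaged (0.075) and after cyclic loess (0.017). Imp3 and Imp4 bind U3 together. Imp3 differed by -0.28 ± 0.26, with -0.55 in number 1 and -0.004 in number 2, and Imp4 by -0.035 ± 0.13, with -0.14 in number 1 and 0.07 in number 2; the sign of Imp4 turned with repeated quantile normalization (0.025) and after cyclic loess (0.033). Nop14 differed by -0.20 ± 0.24, Wdr43 by -0.097 ± 0.18 and Utp20 by -0.075 ± 0.10, all with overlapping groups. Wdr75 was below the background level at 4.57 to 4.87 on the 4 arrays, and its difference of 0.0093 ± 0.14 turned sign with repeated quantile normalization, centring and cyclic loess.

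Box C/D factors had a median of -0.19 over 4 genes, of which 3 were lower, against 55.2% of all genes. Both plumbagin arrays were below both controls in 2 of the 4, against 15.2% of all genes. Nop56, a core protein of every box C/D particle, read 9.35 and 9.55 in controls 1 and 2 and 9.03 and 9.31 in plumbagin 1 and 2. The plumbagin arrays were each below the control of the same number, with differences of -0.32 in number 1 and -0.24 in number 2, and the difference was -0.28 ± 0.14. Rrp9, the protein specific to the U3 particle, had 7.27 and 7.28 in controls 1 and 2 and 7.03 and 7.15 in plumbagin 1 and 2. Its controls were nearly equal and both plumbagin arrays were below them, a difference of -0.19 ± 0.087. Fbl, or fibrillarin, the methyltransferase of these particles, had 9.62 and 9.25 in controls 1 and 2 and 9.22 and 9.26 in plumbagin 1 and 2. Control 1 stood above the other 3 arrays, which were close together, and the difference of -0.20 ± 0.15 came from number 1 alone, -0.40 against 0.003 in number 2.

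Nop58 is the partner of Nop56 in the same particles, yet the spread between its controls was the widest of any of the 41 genes. It read 9.11 and 10.10 in controls 1 and 2 and 9.41 and 9.92 in plumbagin 1 and 2, so control 1 was 0.99 below control 2, and the mean difference was 0.057 ± 0.39. Plumbagin minus control was -0.19 in number 2 and 0.30 in number 1. The 95% interval of its mean difference was -0.98 to 1.09. Without control 1 the median of the 4 box C/D genes was -0.29.

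Box H/ACA factors had no common direction, with 2 genes lower and 2 higher, where 55.2% of all genes were lower. Of the 4 genes, 1 had both plumbagin arrays below both controls, against 15.2% of all genes, and the median of the group was -0.062. Without plumbagin 2 this median was 0.031, and without control 2 it was -0.13. Gar1, a core protein of the particle, read 7.91 and 7.89 in controls 1 and 2 and 7.59 and 7.79 in plumbagin 1 and 2. Its controls agreed within 0.016 and both plumbagin arrays were below them, for a difference of -0.21 ± 0.10. Nhp2, which binds the RNA of the particle, had 10.14 and 9.73 in controls 1 and 2 and 9.95 and 9.66 in plumbagin 1 and 2. Its 2 arrays numbered 1 were above the 2 numbered 2, and the difference was -0.13 ± 0.19. Dkc1, or dyskerin, the pseudouridine synthase, had 7.995 and 8.84 in controls 1 and 2 and 8.49 and 8.70 in plumbagin 1 and 2. Control 1 was 0.85 below control 2, and the difference of 0.17 ± 0.31 was the highest among the 41 genes, with an interval of -0.65 to 1.00. Nop10, the smallest core protein, differed by 0.0051 ± 0.087, with a sign that turned with probe sets averaged (-0.0087) and with arrays centred on their medians (-0.014).

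The last group joins 3 abundant nucleolar proteins with a transcription coactivator, and its median was -0.071 over 4 genes. Pprc1, the PGC-1-related coactivator, known for its action on nuclear genes of mitochondria, read 7.35 and 7.20 in controls 1 and 2 and 6.64 and 7.05 in plumbagin 1 and 2. Both plumbagin arrays were below both controls, and the difference of -0.43 ± 0.17 was -0.71 in number 1 and -0.15 in number 2. Nolc1, a chaperone of small nucleolar particles, had 8.05 and 7.90 in controls 1 and 2 and 7.75 and 7.95 in plumbagin 1 and 2, with only plumbagin 1 below both controls and a difference of -0.13 ± 0.12. Npm1, or nucleophosmin, a chaperone of histones and pre-ribosomes, had 10.82 and 11.17 in controls 1 and 2 and 11.02 and 11.19 in plumbagin 1 and 2. Control 1 was below the other 3 arrays, and the difference was 0.11 ± 0.15; the other probe set of Npm1 had both plumbagin arrays above both controls, by 0.21. The only probe set annotated to Ncl, or nucleolin, lay between 2.86 and 3.04 on the 4 arrays, below the background level, so no direction was read from it. Without plumbagin 1 the median of the group was -0.0071, and without plumbagin 2 it was -0.14.

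**Figure D2:**
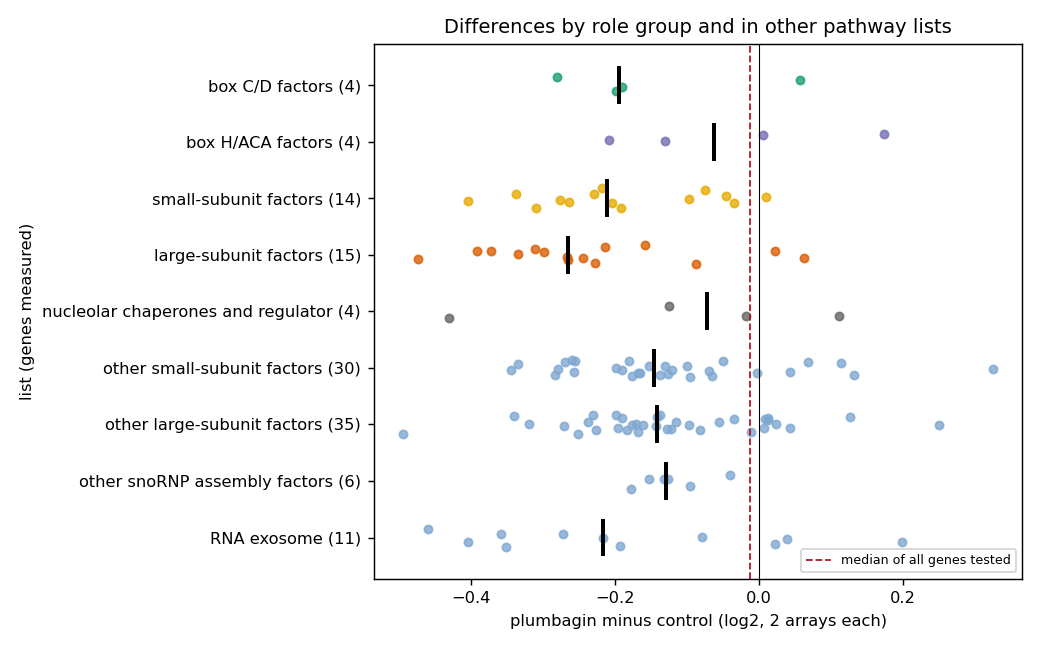
Each point is the difference between the plumbagin and control means of a gene (horizontal axis, log2, 2 arrays per group), in rows for the 5 role groups and 4 lists of other pathway genes, with the number of genes measured in brackets. Black bars are medians and the dashed line is the median of all genes tested, -0.012; the bars run from -0.27 for large-subunit factors to -0.062 for box H/ACA factors.

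The role groups differed in their medians, but with 2 arrays per group and 4 genes in 3 of the groups no test of that difference was made. The ranges of single genes overlapped for all 5 groups. When Rrp9 was counted with the small-subunit factors and Nolc1 with the box C/D factors, the medians were -0.16 for box C/D and -0.20 for small-subunit factors.

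The same genes were set side by side within each replicate number, as plumbagin 1 against control 1 and plumbagin 2 against control 2. In number 1, 34 of the 41 were lower, against 55.5% of all genes, with a median of -0.29. In number 2, 34 were also lower, against 51.5% of all genes, with a median of -0.10. In both numbers together 29 were lower, or 70.7%, against 29% of all genes. Shares were higher among brighter genes. Of the 8637 genes above background, 5969 were lower in number 1, 4378 in number 2 and 36.8% in both. Of the 3478 genes with a mean log2 value from 7 to 9, 2541 were lower in number 1, 1804 in number 2 and 40.5% in both. The difference was further below 0 in number 1 than in number 2 for 31 of the 41. Across the 41 genes the 2 sets of differences had a Pearson correlation of 0.22 and a Spearman correlation of 0.32, and across all 17097 genes 0.037 and 0.042; genes measured on shared arrays are not independent, and these are descriptions. Nop16 and Rrp1b were the genes with the lowest differences in number 2, -0.41 and -0.34. Pprc1, Rrp12 and Wdr74 had the lowest in number 1, -0.71, -0.69 and -0.67.

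**Figure D3:**
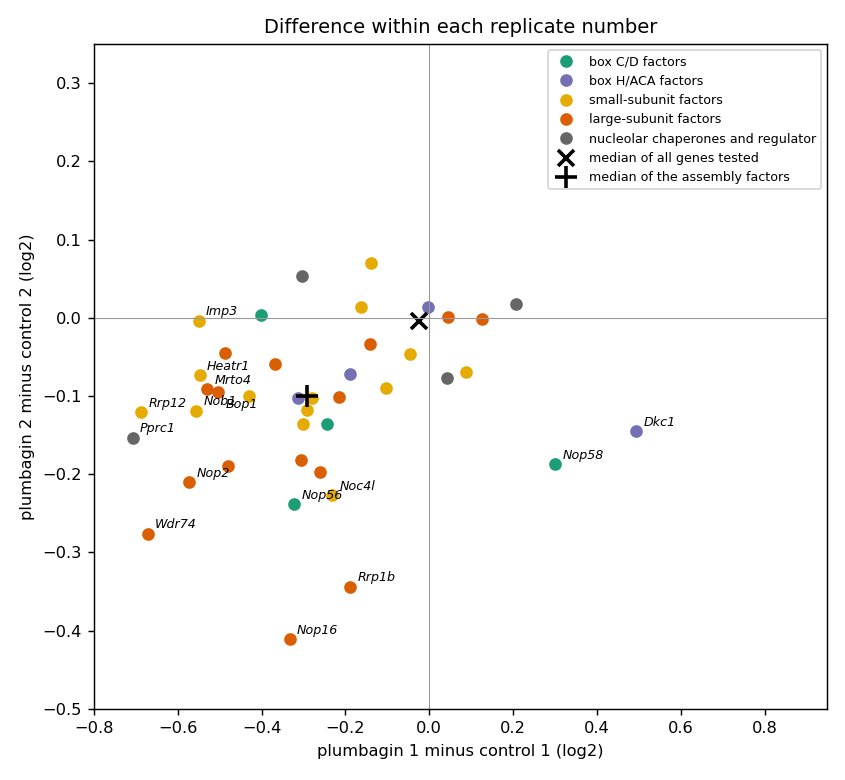
Each point is a gene, with plumbagin 1 minus control 1 on the horizontal axis and plumbagin 2 minus control 2 on the vertical axis (both log2), coloured by role group. The plus sign, the median of the 41 genes, is at -0.29 and -0.10, and the cross, the median of all genes tested, is at -0.023 and -0.0038; 29 genes are below 0 on both axes.

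Differences in number 1 depended on brightness over all genes, and most assembly factors lie where this was strongest. Among genes with a mean log2 value from 7 to 8, which held 16 of the 41, the median over all 2024 genes was -0.17 in number 1 and -0.0013 in number 2. The 16 assembly factors there had medians of -0.31 and -0.11. From 8 to 9, the medians were -0.13 and -0.0082 over 1454 genes, against -0.26 and -0.091 over 11 assembly factors. Of the 41 assembly factors measured, 39 had a mean above background, and 33 of those were lower with plumbagin; Ncl and Wdr75 lay below it and are included in the counts over 41. Among the 8637 genes above background, 65.1% were lower with plumbagin, 18.3% had both plumbagin arrays below both controls and 36.8% were lower in both numbers. After cyclic loess, which evens out such differences between arrays along brightness, the medians of the 41 assembly factors were -0.15 in number 1 and -0.11 in number 2, against -0.0057 and -0.0094 over all genes.

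**Figure D4:**
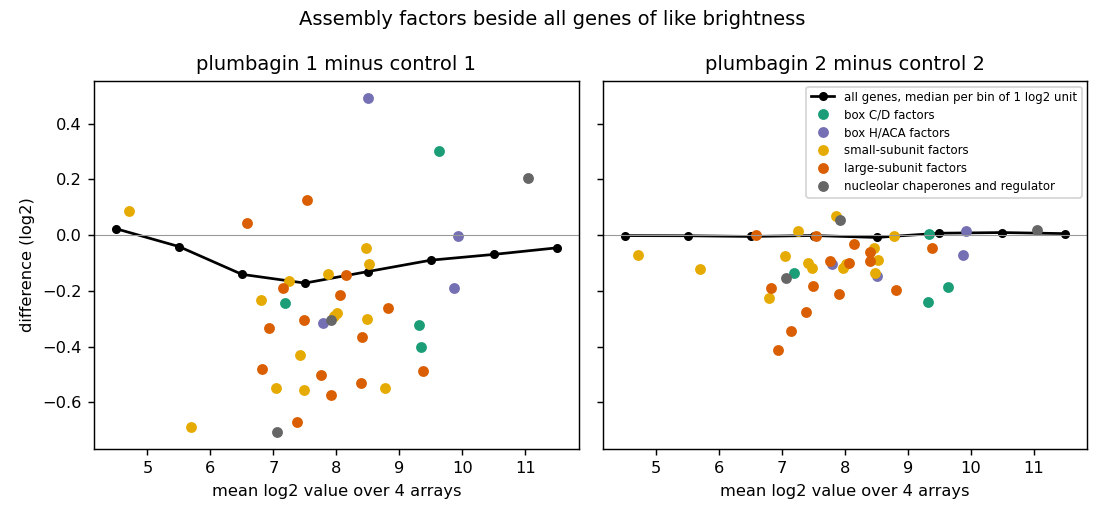
The horizontal axis is the mean log2 value over the 4 arrays and the vertical axis the log2 difference within number 1 (left) and number 2 (right). Coloured points are the assembly factors by role group, without Ncl, which lies below the plotted range, and the black line joins medians of all genes in bins of 1 log2 unit. The line dips to -0.17 on the left and stays between -0.0082 and 0.0094 on the right, where most points still lie below it.

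The direction of single genes was also followed across scalings and probe sets. Under the deposited scaling, repeated quantile normalization, centring on array medians and cyclic loess alike, 11 of the 41 genes had both plumbagin arrays below both controls, where the share over all genes under the same 4 scalings together was 10.5%. These were Nop16, Nop2, Rrp1, Rrp1b, Rrp8, Wdr12 and Mrto4 of the large subunit, Heatr1 of the small subunit, Rrp9, Gar1 and Pprc1. Of the 41 genes, 21 had other probe sets, 25 in all. Of the 19 of these above background, 15 had the same sign as the probe set used and 4 the opposite, and their median difference was -0.21. The 4 opposite ones belonged to Ebna1bp2, Noc2l, Noc3l and Nop10. Of these 19 probe sets, 4 had both plumbagin arrays below both controls. The share was 18.3% of the 8637 genes above background, each read from its brightest probe set, and 14.8% of all 28898 probe sets taken alone. The 4 were the other probe set of Rrp1b (-0.30), both others of Noc4l (-0.33 and -0.25) and that of Imp4 (-0.12). In the other probe sets of Bysl (-0.33) and Pes1 (-0.21) the groups overlapped, and that of Npm1 was apart in the higher direction.

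Other genes of the same pathway, listed by function, had a smaller median difference. Of 82 measured genes, 66 were lower, against 55.2% of all genes, with a median of -0.14. In 28 of the 82 both plumbagin arrays were below both controls, where the share over all genes is 15.2%. The RNA exosome, which trims the precursor RNA from its 3-prime end, had a median of -0.22 over 11 genes. It had 8 genes lower, all with both plumbagin arrays below both controls, and 1 gene with both above. Its genes with the smallest p were Exosc2, a cap subunit (-0.36 ± 0.14), Dis3, a nuclease subunit (-0.35 ± 0.14), Exosc5, a ring subunit (-0.46 ± 0.21), and Exosc10, a nuclease of the nuclear exosome (-0.40 ± 0.19). For each of these 4 the groups were apart. Without control 1 the exosome median was -0.12.

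Other small-subunit factors had a median of -0.15 over 30 genes, 25 of them lower. Of all genes tested, 55.2% had a lower mean and 15.2% had both plumbagin arrays below both controls. Above background, 65.1% of genes had a lower mean. Both plumbagin arrays were below both controls in 9 of these 30 genes. Nop9 (-0.34 ± 0.13), Bud23, a methyltransferase of the 18S RNA (-0.28 ± 0.11), Wdr46 (-0.26 ± 0.12) and Utp4 (-0.26 ± 0.15) had the smallest p. Other large-subunit factors had a median of -0.14 over 35 genes, 27 of them lower. Both plumbagin arrays were below both controls in 9 of the 35, or 25.7%, and above both in 1. For genes with a mean log2 value from 7 to 9, 20.3% had both plumbagin arrays below both controls. The smallest p in this list belonged to Pelp1 (-0.19 ± 0.079), Nip7 (-0.25 ± 0.12), Nol12 (-0.23 ± 0.11) and Ftsj3 (-0.24 ± 0.13). Other assembly proteins of nucleolar particles were lower in 6 of 6 genes, and 2 had both plumbagin arrays below both controls. Their median was -0.13, and it was 0.0065 without control 1, -0.22 without control 2 and -0.059 without plumbagin 2. Their 4 genes with the smallest p were Pih1d1 (-0.18 ± 0.13), Nufip1 (-0.095 ± 0.081), Tcof1 (-0.13 ± 0.12) and Ruvbl2 (-0.15 ± 0.16). None of the 82 passed (limma, adjusted p = 1 for each). Without plumbagin 1 the medians of the other small- and large-subunit factors were -0.016 and -0.0076, and without plumbagin 2 they were -0.25 and -0.28. Without control 2 that of the other large-subunit factors was -0.068.

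Promoter sequences from RefSeq (GRCm38.p6, 250 bases before to 50 after each start) were found for 38 of the 45 genes. They were searched for CACGTG, the E-box bound by MYC, MAX and related factors, which reads the same on both strands. Of these 38 genes, 9 had it, or 23.7%, against 10.2% of the 13605 tested genes with a promoter sequence. Among the other listed genes of the pathway, 14 of 76 with a promoter sequence had it, or 18.4%. By role, 7 of 15 small-subunit factors and 2 of 13 large-subunit factors had it, and 0 of 3 box C/D, 0 of 4 box H/ACA and 0 of 3 of the last group. The 8 measured genes with the motif had a median difference of -0.14 and the 27 without it -0.23. A match is a run of letters and not a binding site, and no binding was measured here.

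In 3 genes the motif lay wholly before the start: 60 bases before it in Nop2, 20 in Utp18 and 121 in Imp4. The 150 bases before the outermost start that RefSeq gives for these genes are shown to let the motif be compared between a gene whose groups were apart (Nop2), a gene with a very small difference (Utp18) and a gene whose groups overlapped (Imp4). Nop16, with the smallest p of the 41, is shown as a promoter without the motif. Capitals mark CACGTG, and each sequence runs 5′ to 3′ on the strand of the gene. Nop2 is at chr6:125131733-125131882 (plus strand), Utp18 at chr11:93885767-93885916 (minus strand), Imp4 at chr1:34439679-34439828 (plus strand) and Nop16 at chr13:54590098-54590247 (minus strand).
Nop2: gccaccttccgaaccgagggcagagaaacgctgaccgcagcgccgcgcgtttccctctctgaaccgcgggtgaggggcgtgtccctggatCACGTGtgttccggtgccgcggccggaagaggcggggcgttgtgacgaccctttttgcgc
Utp18: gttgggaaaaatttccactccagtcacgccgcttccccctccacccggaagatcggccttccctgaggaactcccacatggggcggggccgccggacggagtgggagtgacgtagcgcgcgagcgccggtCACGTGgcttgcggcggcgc
Imp4: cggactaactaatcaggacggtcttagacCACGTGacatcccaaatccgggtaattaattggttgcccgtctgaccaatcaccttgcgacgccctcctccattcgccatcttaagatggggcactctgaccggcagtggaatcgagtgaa
Nop16: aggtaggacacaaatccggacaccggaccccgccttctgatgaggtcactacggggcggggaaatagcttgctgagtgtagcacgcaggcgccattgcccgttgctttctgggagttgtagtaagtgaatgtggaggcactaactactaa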

How the data were processed

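Total RNA of 4 B16F10 samples was labelled by in vitro transcription and hybridized to Affymetrix mouse array strips, per the labels' protocols. The values deposited by the authors were on a log2 scale, 1 for each probe set and array. Named in the submitters' processing notes are Transcriptome Analysis Console, Affymetrix Expression Console and RMA. Their versions are not given in the sources used here. Normalization by RMA evens out array distributions, which hides a shift shared by most genes and shrinks differences of dim probe sets.

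Of 45141 probe sets, 28898 had 1 gene symbol in the platform annotation, 551 had several and 15588 were unnamed; the unnamed, those with several symbols and 104 control probe sets were left out. Symbols followed a RefSeq table of GRCm38.p6 for the 28689 whose Entrez number it held. Differences (plumbagin minus control) were fitted with lmFit and eBayes of limma 3.58.1 (R 4.3.3), two-sided, with Benjamini-Hochberg adjustment over 17097 genes, a threshold of 0.05, no covariate and no filter. The code was tested on simulated data. The members, role groups, pathway and marker lists, motif and alternatives were chosen with earlier results of these data known. Values on every array are given for members apart between the groups and for the 3 with the smallest p per role group; in each other list the 4 with the smallest p are named. Other members, some also with array values, lie outside this rule. Alternatives were averaging a gene's probe sets, testing each probe set alone, removing dim genes in 2 ways, a second quantile normalization, centring, cyclic loess, a trended and a robust eBayes, a replicate block, another placing of Rrp9 and Nolc1, and leaving out each array (the remaining array of that group borrows its spread from the other group). Precision was limited by 2 arrays per group. Promoter sequences came from RefSeq.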

Additional observations from a re-analysis of the deposited data

How the results depend on the processing

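No gene and no member passed the threshold under any of the alternatives run (0 by limma in each). Leaving out 1 array in turn, the median of the 41 genes ranged from -0.23 to -0.10 and the genes lower without overlap from 24 to 31, a count that rises because fewer arrays must be apart. Over the same fits the medians ranged from -0.29 to -0.13 for box C/D, -0.13 to 0.031 for box H/ACA, -0.30 to -0.072 for small-subunit and -0.34 to -0.17 for large-subunit factors, from -0.14 to -0.0071 for the chaperones and regulator, from -0.25 to -0.016 for other small-subunit and -0.28 to -0.0076 for other large-subunit factors, from -0.22 to 0.0065 for other particle assembly proteins and from -0.30 to -0.12 for the exosome. After cyclic loess 12 genes were lower without overlap in place of 21, and after repeated quantile normalization 16; loess evens out array differences along brightness, and the cause of the smaller count was not tested. Centring on array medians gave 20, and moved the lower share of all genes apart between the groups from 59.8% to 69.8%. The box H/ACA median was -0.090 with probe sets averaged, -0.044 with repeated quantile normalization, -0.081 with centring, -0.017 after cyclic loess and -0.022 with each probe set alone.

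Signs of single genes turned outside the left-out fits for 5 of 41: Nop10 (-0.0087 with probe sets averaged, -0.014 with centring), Utp18 (0.075 averaged, 0.017 after loess), Wdr75 (-0.0076 with quantile normalization, -0.0095 with centring, -0.0057 after loess), Imp4 (0.025 with quantile normalization, 0.033 after loess) and Noc3l (-0.18 averaged). With 1 array left out, 17 of 41 changed sign. Their ranges were -0.44 to 0.55 for Nop58, -0.25 to 0.60 for Dkc1, -0.34 to 0.076 for Nhp2, -0.043 to 0.053 for Nop10, -0.48 to 0.067 for Nop14, -0.17 to 0.021 for Utp20, -0.27 to 0.073 for Wdr43, -0.14 to 0.16 for Wdr75, -0.63 to 0.077 for Imp3, -0.19 to 0.12 for Imp4, -0.67 to 0.14 for Rrs1, -0.23 to 0.36 for Gnl2, -0.20 to 0.027 for Ebna1bp2, -0.56 to 0.071 for Noc2l, -0.15 to 0.20 for Noc3l, -0.10 to 0.0696 for Ncl and -0.066 to 0.29 for Npm1.

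Same-numbered arrays share only a number in the labels. Number 1 minus number 2 correlated at 0.54 between the controls and the plumbagin arrays over 17097 genes. With the replicate number as a block the count of genes past the threshold stayed at 0, that of members at 0, and all differences were as before by construction, with a median of -0.21 over the 41 genes.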
